A study of Rattus norvegicus with 4 samples.

Results

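The bradykinin receptors were read on these rat arrays by 3 probe sets, chosen as all those whose gene symbol was exactly Bdkrb1 or Bdkrb2, out of 1263 probe sets other than controls. Bdkrb1, the gene of the B1 receptor, had the probe sets AJ132230_g_at and AJ132230_at, which carry the name of the same sequence record and are called the brighter and the dimmer here. Bdkrb2, the gene of the B2 receptor, had X80187mRNA_s_at alone, of a kind that can also detect related transcripts. The RNA, total RNA of rats from a source labelled brain, adrenal medulla, was hybridised to 4 arrays, 1 each for undigested day 1, digested day 1, undigested day 7 and digested day 7 of a time course. The labels give neither strain nor age, and neither what was digested nor whether tissue or cultured cells were used. Groups of a single array leave no spread between replicates to judge a difference by. The receptor pair was also selected on the signal differences of these same 4 arrays in an earlier analysis, so every difference is given as a size without a test.

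Bradykinin and kallidin are short peptides cut from kininogens by kallikreins and broken down by peptidases such as angiotensin-converting enzyme. Both receptors couple mainly to Gq, which activates phospholipase C and raises cytosolic calcium. The B2 receptor is present in most tissues without stimulation, binds intact bradykinin and is soon desensitised and internalised. The B1 receptor binds the forms that have lost their last arginine, is scarce in healthy tissue and is induced by injury and by cytokines such as interleukin 1, largely through NF-kB. In the adrenal medulla bradykinin is a known stimulus of catecholamine release, acting on chromaffin cells through B2.

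In the RefSeq gene table of the rat, Bdkrb1 is the next protein coding gene after Bdkrb2 on chromosome 6. The promoter table of the same source held Bdkrb1. The 195 bases on the plus strand that end just before the first base of the gene in GRCr8, chr6:130275436-130275630, are shown because this is the inducible receptor, and capitals mark a loose form of the NF-kB motif, GGG and CC with any 5 bases between them, on either strand.
Bdkrb1: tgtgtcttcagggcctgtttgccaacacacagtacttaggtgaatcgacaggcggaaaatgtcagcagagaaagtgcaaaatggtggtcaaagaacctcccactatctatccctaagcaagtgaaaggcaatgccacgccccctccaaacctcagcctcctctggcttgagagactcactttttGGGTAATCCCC
The capitals hold 2 overlapping matches. The same letters occurred in 34.3% of 33469 windows of this length and position before other genes, so the match is common. TGANTCA (AP-1), TGACGTCA (cAMP response element), TATAAA and GGGCGG were not in this window on either strand, and they occurred in 5.08%, 0.869%, 9.76% and 23.3% of the windows. The arrays do not measure this sequence, and the motifs were chosen after the sequence had been seen.

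Signals are given after the arrays were brought to 1 shared median, taken without the control probe sets, and values under a floor of 51.8, the 20th percentile of all scaled values, were set to it before log2 was taken. The brighter Bdkrb1 probe set had scaled signals of 398.0 and 84.7 in the undigested and the digested sample of day 1, and of 354.9 and 269.6 in those of day 7. The digested day 1 array stood apart as low, at 1.63 times the floor, and the other 3 lay within a narrow band. The dimmer Bdkrb1 probe set had signals of 93.0, 50.1, 264.8 and 127.7 on the same arrays in the same order. Here too the digested day 1 array was lowest, at the floor, but the undigested day 7 array was the highest and the undigested day 1 array lay with the low values. Bdkrb2 had signals of 422.1, 342.1, 855.0 and 594.1, so that both day 7 arrays were above both day 1 arrays, and the highest was 2.50 times the lowest.

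**Figure D1:**
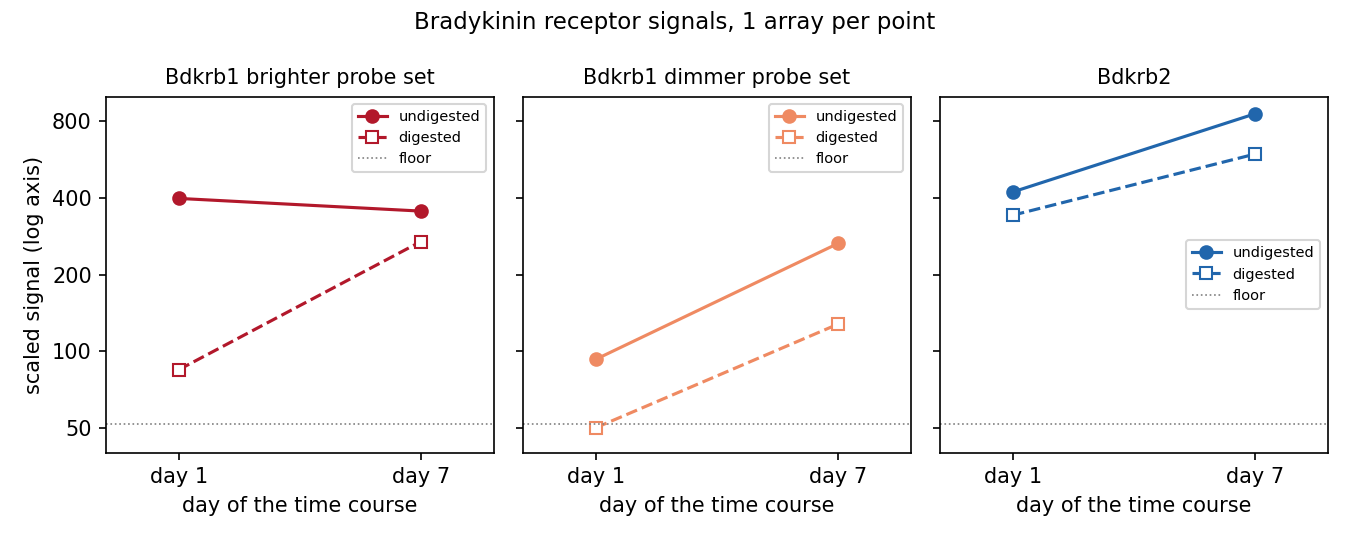
Scaled signal (log axis) of the brighter Bdkrb1, the dimmer Bdkrb1 and the Bdkrb2 probe set at day 1 and day 7, 1 array per point, with filled circles for undigested and open squares for digested samples and the floor of 51.8 dotted. In all panels the digested sample lies below the undigested one at both days, while the undigested line runs from 398.0 to 354.9 for the brighter Bdkrb1 probe set and from 93.0 to 264.8 for the dimmer.

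In rank among the 1263 probe sets, Bdkrb2 had the higher place. Its mean log2 signal exceeded that of 62.1% of them, against 50.8% for the brighter and 33.8% for the dimmer Bdkrb1 probe set. Probe sets differ in how strongly they bind, so these places do not compare the amounts of the receptor transcripts. Probe sets with a mean log2 signal at or above the median (a signal of 229) were analysed further, which kept 632, among them Bdkrb2 and the brighter Bdkrb1 probe set, and left out the dimmer one.

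Signals of both receptors were lower in the digested than in the undigested sample at both days, by all 3 probe sets. At day 1 digestion went with a 4.70-fold lower signal of the brighter Bdkrb1 probe set (log2 -2.23), which no other of the 632 analysed probe sets went below. The dimmer one was at least 1.79-fold lower, with the digested value taken at the floor. A floor at the 40th percentile (162), above the Bdkrb1 signal of 84.7, shortened -2.23 to -1.30, and an offset in place of the floor gave -1.72. Bdkrb2 was 1.23-fold lower (log2 -0.30), while the median of the analysed probe sets was 0.12. At that day 3.48% of all analysed probe sets passed 2-fold either way and 1.42% were at least 2-fold lower, so of the pair of analysed receptor probe sets only the Bdkrb1 one was among the few that passed. Its mean signal, 238.3, lay just above the filter at 229, and dim probe sets passed 2-fold more often. Without the filter 208 of the 1263 probe sets passed at day 1, against 22 of the 632 analysed and 0 in their brighter part. A direction of lower in digested samples at both days was held by 15.2% of the analysed probe sets, and by between 21.0% and 26.7% of them in the values as deposited, after quantile normalisation and after cyclic loess.

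At day 7 the digestion differences of both receptors were of like size in the analysed probe sets. With digestion the brighter Bdkrb1 probe set was 1.32-fold lower (log2 -0.40) and Bdkrb2 1.44-fold lower (log2 -0.53), and neither reached 2-fold, which 11.4% of the analysed probe sets did. The dimmer Bdkrb1 probe set was 2.07-fold lower (log2 -1.05), falling short of 2-fold at -0.91 in the values as deposited, -0.96 after cyclic loess, -0.82 with the offset and -0.71 with the raised floor. The lower quartile of the analysed probe sets was -0.37, so both analysed receptor probe sets lay just below it.

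Bdkrb2, the constitutive receptor, was higher at day 7 than at day 1 in both digestion states. It was 2.03-fold higher in the undigested samples (log2 1.02) and 1.74-fold higher in the digested samples (log2 0.80). At least 2-fold differences either way were read for 13.3% of the analysed probe sets in the undigested and for 8.07% in the digested samples, and the undigested value of Bdkrb2 lies at that limit. It was 0.79 in the values as deposited, 0.96 after quantile normalisation and 0.94 after cyclic loess, while the same 3 scalings moved the median of the analysed probe sets by -0.23, -0.17 and -0.17 from its main value of 0.17. Of the analysed probe sets 37.2% were higher at day 7 in both states. The split of the 2-fold differences in the undigested samples, 46 higher and 38 lower, turned to 20 and 59 in the values as deposited.

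Bdkrb1, the inducible receptor, gave a different account of the days by each of its probe sets. In the digested samples both were higher at day 7, the brighter 3.18-fold (log2 1.67) and the dimmer at least 2.46-fold. In the undigested samples the dimmer probe set was 2.85-fold higher at day 7 (log2 1.51), and the brighter was 1.12-fold lower (log2 -0.17). Higher Bdkrb1 signals at day 7 were thus read by both probe sets in the digested samples and by 1 of them in the undigested samples. With the floor raised to 162, 1.67 became 0.73 and 1.51 became 0.71, both short of 2-fold. The difference of the digestion differences, day 7 minus day 1, was 1.84 for the brighter Bdkrb1 probe set and -0.22 for Bdkrb2, against 14.4% of the analysed probe sets at 1 or more either way. For the dimmer Bdkrb1 probe set it was at least -0.21, a bound next to the value of Bdkrb2, so a contrast between the receptors is read by the brighter probe set and not shown by the dimmer. It uses all 4 arrays. For Bdkrb1 it fell to 0.90 with the floor raised above the signal of 84.7, and for Bdkrb2 it was 0.05 in the values as deposited.

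**Figure D2:**
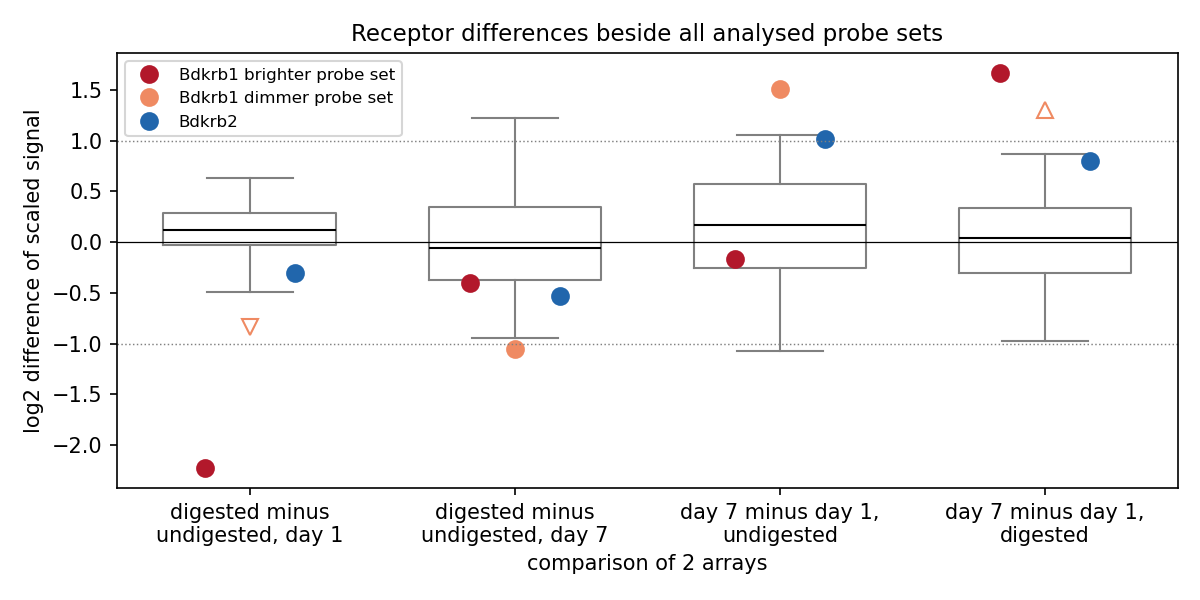
Log2 differences of the brighter Bdkrb1, dimmer Bdkrb1 and Bdkrb2 probe sets in the 4 comparisons of 2 arrays each, with open triangles for bounds where a value was at the floor. Boxes show the median and quartiles and whiskers the 5th and 95th percentiles of the 632 analysed probe sets, dotted lines mark 2-fold, and the brighter Bdkrb1 probe set at day 1 lies lowest, at -2.23.

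Setting the receptors against each other within each array removes whatever multiplies all signals of that array. The log2 difference of Bdkrb1 by its brighter probe set minus that of Bdkrb2 was -1.93 for digestion at day 1 and 0.13 at day 7. Between the days it was -1.18 in the undigested and 0.87 in the digested samples. The raised floor turned the last to -0.06 and the first to -0.99. Relative to Bdkrb2, the brighter Bdkrb1 probe set was thus 3.81-fold lower in the digested sample at day 1 and within 1.09-fold at day 7. With the dimmer probe set the same quantity was at most -0.54 at day 1, -0.53 at day 7, 0.49 between the days in the undigested samples and at least 0.50 in the digested samples. By that probe set, none of the 4 comparisons was shown to set Bdkrb1 apart from Bdkrb2 by 2-fold, although those 2 bounds allow larger differences. The root mean square distance of the log2 profiles over the 4 arrays, each centred on its own mean, was 0.36 between the dimmer Bdkrb1 probe set and Bdkrb2. It was 0.69 between the brighter one and Bdkrb2 and 0.63 between both Bdkrb1 probe sets.

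The array holds 93 sequences with a pair of probe sets named like those of Bdkrb1, ending in _at and _g_at, which shows how often such a pair disagrees. For the days in undigested samples 61 of the pairs had no value at the floor, their median gap was a log2 of 0.24, and 9 of them (14.8%) differed by at least 2-fold. The gap of Bdkrb1, 1.68 in size, was exceeded by 3 of the 61, and 9 of the 61 had opposite signs. For digestion at day 7 the Bdkrb1 gap was 0.66, exceeded by 16 of 64 pairs, and 8 of the 64 (12.5%) differed by at least 2-fold. This comparison was chosen after the values of Bdkrb1 were seen. The places of the probes of either set in the transcript were not analysed here.

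**Figure D3:**
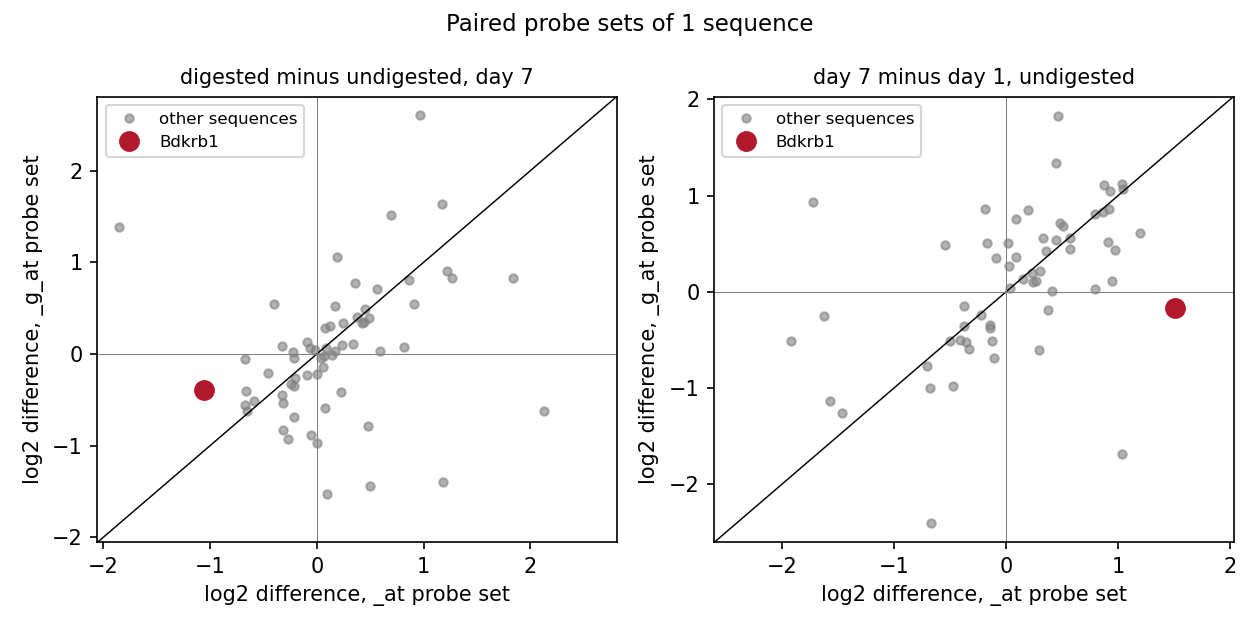
Log2 difference of the _g_at against the _at probe set of the same sequence, for digestion at day 7 (64 pairs, left) and for the days in undigested samples (61 pairs, right), leaving out pairs with a value at the floor. The diagonal marks equal differences, and Bdkrb1 lies above it at day 7 (-1.05 and -0.40) and far below it for the days (1.51 and -0.17).

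The control probe sets put limits on the day 7 arrays. The 9 probe sets for transcripts spiked in at hybridisation had a median 2.55-fold below the other arrays on that of digested day 7. The 3′ to 5′ signal ratio of beta-actin, which goes up when labelled RNA is shortened, was 2.66 on the undigested day 7 array against 1.35 to 1.48 on the others. The same ratio of GAPDH differed less, at 1.18 on that array against 1.01 to 1.10 on the others. Their part in the day 7 values of both receptors was not tested. The day 1 digestion difference uses neither of these arrays, and the beta-actin ratios behind it were 1.42 and 1.48.

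Of 30 genes listed for the kinin system besides the receptors (kininogens, kallikreins, converting enzymes and other kinin peptidases), 2 were on the array. Nln, the gene of neurolysin, a peptidase that cleaves bradykinin, had signals of 2930, 3224, 3375 and 4041 in the order undigested and digested day 1, undigested and digested day 7. Its digestion differences were 0.14 at day 1, which turned to -0.01 after quantile normalisation and cyclic loess, and 0.26 at day 7, and it differed by at most 0.33 in any comparison. Klk8, a kallikrein-related peptidase of the nervous system, was under the floor on all 4 arrays.

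Other receptors for peptides were mostly too dim to compare. Of 50 listed, 24 were on the array and 7 analysed. Of these 7, 2 were lower in digested samples at both days, beside 15.2% of all analysed probe sets, and 3 in the values as deposited, 2 after quantile normalisation and 4 after cyclic loess. At day 1, 0 of the 7 passed 2-fold either way, beside 3.48% of all analysed probe sets, and at day 7 the share of all was 11.4%. At day 7, 1 was higher and 1 lower in the digested sample, namely Avpr2, the vasopressin V2 receptor gene (log2 1.37, with the other probe set near the floor), and Hcrtr1, the orexin receptor gene (log2 -1.67). Npy1r, a neuropeptide Y receptor gene, had signals of 1670, 1856, 3113 and 4030 and, like Bdkrb2, was higher at day 7 in both states (log2 0.90 and 1.12). Avpr1b, the vasopressin V1b receptor gene, stood at 0.56 and 0.20 for the days, and its dimmer probe set at 1.05 and -1.53. The median over the 7 was -0.07 for digestion at day 1 and 0.01 at day 7, and 0.09 and -0.01 for the days in undigested and digested samples, against 0.12, -0.05, 0.17 and 0.04 over all analysed probe sets.

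Genes that carry the signal of Gq and Gi coupled receptors were on the array for 11 of 40 listed, with 8 analysed. At day 1, 0 of the 8 passed 2-fold in the comparison of digested with undigested samples, and 0 of them had a negative difference, with 1 in the values as deposited, 2 after quantile normalisation and 1 after cyclic loess. Their median was 0.23 against 0.12 over all analysed probe sets, whose lower quartile was -0.03, so most of all analysed probe sets were also above 0. Past 2-fold were 3.48% of all analysed probe sets. Arrb1, the gene of an arrestin that uncouples and internalises such receptors, was higher in digested samples at day 7 (log2 1.66). At that day 1 of the 8 passed 2-fold, beside 11.4% of all analysed probe sets. In the undigested samples Gnao1, the gene of the Go alpha subunit, was higher at day 7 (log2 1.11) and Arrb1 lower (log2 -1.29), and Gnao1 fell short of 2-fold by its other probe set (0.87) and in the values as deposited, after quantile normalisation and after cyclic loess. Grk2, the gene of a kinase that phosphorylates active receptors, was at 0.68 in the undigested and 0.63 in the digested samples. The other arrestin gene, Arrb2, was at -0.76 and -0.77 by the brightest of its 5 probe sets, and the other 4 ran from -0.57 to 0.35 and from -0.71 to 0.02.

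Of 45 genes of inflammatory mediators and of the signals that induce the B1 receptor, 35 were on the array and 15 analysed. The cytokine gene Il1b, a classic inducer of B1, was not among the 15, since its brightest probe set had signals of 22.7 (undigested) and 14.0 (digested) at day 1 and of 300 and 171.5 at day 7. It was under the floor of 51.8 at day 1 and above it at day 7, so that it was at least 5.79-fold higher at day 7 in the undigested and at least 3.31-fold higher in the digested samples. Like the dimmer Bdkrb1 probe set and Bdkrb2, it was highest in the undigested and next highest in the digested sample of day 7. The other Il1b probe set did not show this, with signals of 56.8, 53.0, 46.4 and 52.5, all near the floor, and Il1a was under the floor on all 4 arrays. Nfkb1, which codes for an NF-kB subunit, had signals of 2263, 2386, 3319 and 2327. It was thus highest on the undigested day 7 array, where the dimmer Bdkrb1 probe set and Bdkrb2 were also highest, so this place is not particular to Bdkrb1. The brighter Bdkrb1 probe set was highest on the undigested day 1 array (398.0). Among cytokine genes too dim to be analysed, Il6 and Tnf were highest on the digested day 7 array (147.2 and 145.4). Ifng was highest on the undigested day 7 array (203.3). The part of these genes in the Bdkrb1 values was not tested. Nos2, the inducible nitric oxide synthase gene, was the gene past 2-fold for digestion at day 1 among the 15, beside 3.48% of all analysed probe sets. It was higher in the digested sample (log2 1.09, and 0.96 in the values as deposited) by its brightest probe set. Of the other 6 Nos2 probe sets, all too dim to be analysed, 4 were off the floor on every array. They gave -0.46, -0.54, 0.14 and -0.07, so they shared no direction. Another was higher in the digested sample by at least 1.67, from under the floor to a signal of 165.3. At day 7 the brightest was lower (log2 -1.48), while the 4 off the floor gave -0.85, 1.03, -1.18 and -0.02. Also lower were the chemokine gene Cx3cl1 (log2 -2.08, to a signal of 74.6 near the floor) and the interleukin 6 receptor gene Il6r (log2 -1.14), which with Nos2 makes 3 of 15 at least 2-fold lower beside 4.43% of the analysed probe sets. In the values as deposited Il6r was at -0.99, which leaves 2. A dimmer probe set of Cx3cl1 gave 1.01, the opposite direction. In the undigested samples 4 of the 15 were at least 2-fold higher at day 7, beside 7.28% of the analysed probe sets, and 1 was lower, Tgfb3 (log2 1.33, and 0.45 by its other analysed probe set) and Il6r (log2 1.33) among the higher ones, with a list median of 0.48 against 0.17. The 4 became 3 in the values as deposited, after quantile normalisation and after cyclic loess.

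The labelled tissue was checked by marker lists. Chromaffin cell markers were on the array for 6 of 12 genes, 5 of them analysed, and Th and Dbh, the defining genes of catecholamine synthesis, were bright, with Th between 163625 and 256725. The median over the 5 was 0.15 for digestion at day 1 and -0.50 at day 7, where 5 of 5 were below 0 (4 as deposited, and 4 with quantile normalisation), and 0.95 and 0.27 for the days in undigested and digested samples. Over all analysed probe sets the medians were 0.12, -0.05, 0.17 and 0.04. The chromaffin medians at day 7 and between the days have the directions of Bdkrb2, and at day 1 the opposite one. As deposited, the day 1 median was 0.02, with 2 of 5 below 0. For the days, Npy was lower in the undigested samples (log2 -0.61), and Npy and Th (log2 -0.51) were lower in the digested samples. Not all chromaffin markers were bright: Npy was at 58.2 on the digested day 7 array (log2 -3.31 for the days in digested samples), and Slc18a2, the gene of a vesicular monoamine transporter, was at 31.3 to 160.8. Neuron markers, 9 of 13 on the array and all 9 analysed, had medians of 0.13, -0.46, 0.42 and -0.46 in the same order, with summed signals of 171630 to 248727, lowest in the digested day 7 sample. Glia and Schwann cell markers, 9 of 14 on the array and 4 analysed, had medians of -0.01, 0.01, -0.09 and 0.06. Their sum was 9610 and 9836 at day 1 and 6623 and 6414 at day 7. The fall in the sum rests on Glul, with signals of 6551 and 6904 at day 1 and 2499 and 3356 at day 7. Of the 4 analysed, 3 were below 0 for the days in the undigested and 2 in the digested samples. Cnp was higher in the undigested samples (log2 0.73), and Mag (0.34) and Slc1a3 (0.23) in the digested samples. The part of these lists in the receptor values was not tested. For the cells that are known for bradykinin receptors outside the adrenal medulla the array has few markers: 3 of 17 of endothelium, muscle and fibroblasts, with summed signals of 360 to 486 and Vim at the floor on all 4 arrays, and 2 of 12 of immune cells, with 0 analysed. The immune sum was 222 and 54.4 in the undigested and the digested sample of day 1, and 143 and 148 in those of day 7. It was thus lowest on the array on which both Bdkrb1 probe sets were lowest. On that array both of its genes, Itgam (7.9) and C3 (46.5), were under the floor, so the size of the fall in the sum is not measured. Itgam was also under the floor on the undigested day 7 array (18.4). The part of the immune sum in the Bdkrb1 difference was not tested. Fewer cells of a type and less RNA per cell cannot be told apart in such samples.

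Among 564 analysed probe sets that name 1 gene and have no value at the floor, the profiles closest to the brighter Bdkrb1 probe set over the 4 arrays were those of Camk2d (root mean square distance 0.27), a calcium and calmodulin dependent kinase gene, Scn4a (0.33), a sodium channel gene, Gabrd (0.37), a GABA receptor subunit gene, and Asic1 (0.43), an acid-sensing channel gene. Each had its lowest signal on the digested day 1 array, at 166, 128, 117 and 198, which the selection by closeness to this profile favours. The Camk2d match rests on 1 probe set of 5, and the distances of the other 4 ran from 0.87 to 0.96. The other Gabrd probe set lay at 0.79.

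Closest to Bdkrb2 were Ctxn1 (0.10), the gene of the neuronal membrane protein cortexin, Egr1 (0.13), an immediate early transcription factor gene, Kcnj11 (0.15), a potassium channel subunit gene, and Pdgfa (0.17), the gene of a growth factor chain. All 4 had their highest signal on the undigested day 7 array and the next highest on the digested day 7 array, which the selection likewise favours. Ctxn1 followed Bdkrb2 in each comparison, with signals of 1115, 865, 1921 and 1358. The other probe set of Egr1 lay at 0.56 and that of Kcnj11 at 0.96, while both others of Pdgfa lay at 0.24 and 0.41. With 4 arrays, many unrelated genes can share a profile.

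**Figure D4:**
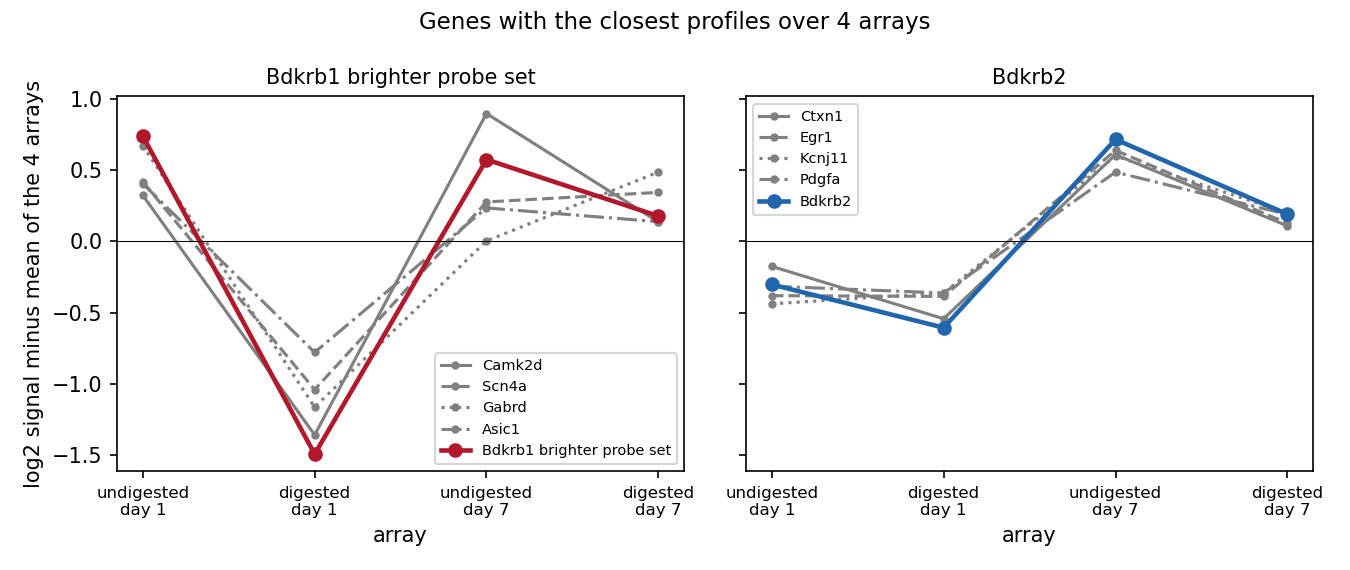
Log2 signal minus its mean over the 4 arrays for the brighter Bdkrb1 probe set (left) and Bdkrb2 (right), with the 4 genes of the closest profile in grey. The Bdkrb1 panel has its lowest points on the digested day 1 array and the Bdkrb2 panel its highest on the undigested day 7 array.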

How the data were processed

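The deposited values were linear signal intensities per probe set; the authors' signal calculation, scaling and genome build are not given in the sources used here. The mean after trimming 2% at each end was 2515 to 2516 on every array, which points to a scaling by the authors. The number of arrays, 1 per group, limits the precision. Of 1322 probe sets 59 were controls. Signals were rescaled by 0.925 (undigested) and 1.01 (digested) at day 1 and by 1.09 and 0.984 at day 7, floored, taken to log2 and filtered at the median. Differences were counted at 2-fold (log2 of 1). Genes in lists are represented by their brightest probe set. Named are both receptors, the kinin system, up to 4 genes per list with the greatest differences (for the marker lists only some of these) and the 4 closest profiles per receptor. Nfkb1, Il1a, Il1b, Il6, Tnf, Ifng, Slc18a2, Itgam, C3, Th and Vim were added after their values were seen. The receptors and lists were chosen with earlier results of these data known. Alternatives were the values as deposited, quantile normalisation, cyclic loess (limma 3.58.1 in R 4.3.3), an offset, a floor at the 40th percentile and thresholds of 1.5-fold and 3-fold. Other steps used Python 3.11.15, numpy 2.4.6 and pandas 2.3.3, and were tested on simulated data.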

Additional observations from a re-analysis of the deposited data

Results flagged for a closer look

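The brighter Bdkrb1 probe set was lower at day 7 in the undigested samples (log2 -0.17) and higher in the digested samples (log2 1.67), opposite directions in the 2 states with 1 array behind each value. The difference between the states was not tested, and the dimmer probe set was higher at day 7 in both. By the brightest of its 7 probe sets, Nos2 was higher in the digested sample at day 1 (log2 1.09) and lower at day 7 (log2 -1.48), which was likewise not tested. Of the other Nos2 probe sets off the floor, 1 had the same order (0.14 and -1.18). Others did not share it: 1 gave -0.46 and -0.85, another -0.07 and -0.02, and another -0.54 and 1.03, the opposite order.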

How the results depend on the processing

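The 15 receptor results counted here leave out the dimmer Bdkrb1 probe set. Over 5 other scalings and floors, 68 of their 75 values stayed on their side of 2-fold, 7 fell below it and 0 of those past 2-fold changed direction. The dimmer probe set fell below 2-fold for digestion at day 7 in all of these but quantile normalisation. Its day difference fell to 0.71 in the undigested samples with the raised floor. In the digested samples it fell to 0.82 with the offset and to 0.0 with the raised floor. The day difference of Bdkrb2 in undigested samples was 0.79 as deposited, 0.96 after quantile normalisation and 0.94 after cyclic loess and with an offset. With the floor at the 40th percentile (162), which lies above the Bdkrb1 signal of 84.7, Bdkrb1 in digested samples had a day difference of 0.73, its difference of differences was 0.90 and its day 1 digestion difference relative to Bdkrb2 was -0.99; the raised floor shortens these by construction. Short of 2-fold, 3 of 100 receptor values, now with the dimmer probe set included, changed sign. They were those of the differences of differences of Bdkrb2 (0.05) and of the dimmer Bdkrb1 probe set (0.04) as deposited and the digested day difference of Bdkrb1 relative to Bdkrb2 with the raised floor (-0.06). At 1.5-fold, the digested day difference of Bdkrb2 (0.80) and that of Bdkrb1 relative to it (0.87) passed; at 3-fold, the undigested ones of Bdkrb2 (1.02) and of Bdkrb1 relative to it (-1.18) did not. The day 1 digestion difference of Bdkrb1 ran from -2.36 to -1.30. The analysed probe sets past the threshold in digestion at day 1 and day 7, days in undigested and digested samples and the difference of differences numbered 22, 72, 84, 51 and 91. They became 73, 176, 235, 150 and 233 at 1.5-fold and 8, 25, 20, 18 and 39 at 3-fold. Without the filter they were 208, 273, 284, 242 and 366, and in the brighter part of the set 0, 12, 30, 11 and 20. Depth is not defined for these arrays; signals near the floor were the limit, and no background flags were used here. An additive fit of digestion and day, which would leave 1 residual degree of freedom, was not run, because the receptors were chosen on these differences.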
